A study of Mus musculus with 10 samples.

Results

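The cytosolic ribosomal protein genes were followed at their transcription start sites (TSS) in the developing mouse retina. They were taken by symbol from the deposited table: every Rpl or Rps symbol made of a number and at most 1 further letter, with Rplp0, Rplp1, Rplp2 and Rpsa. This gave 81 genes of 20045 gene symbols, on 92 of 25152 rows, and a symbol with several rows was represented by the row with the largest sum over its 8 values. Large subunit proteins accounted for 46 core members and small subunit proteins for 31, and the other 4 members (Rpl3l, Rpl10l, Rpl39l and Rps27l) were paralogs of core proteins.

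Histone H3 dimethylated at lysine 4 (H3K4me2) and trimethylated at lysine 27 (H3K27me3) were mapped by ChIP-Seq in whole retinas at 4 stages (E17.5, which the titles call E17, then PN1, PN7 and PN15), and each mark has 1 library per stage. Each stage pooled at least 20 retinas, and the sexes were not given. The labels name Pde6b (rd1/rd1) mutant mice as the strain of every library, but only the title of a PN30 library, not used here, carries rd1. The study bought C57BL/6j and rd1/rd1 mice, describes its developmental series as wild type and used the mutants as a control that lacks rods, so for these 8 libraries the strain label and the study differ. All values are normalized occupancies, the reads within 2.5 kb of a TSS scaled by the authors to the mapped reads of each library, and they are whole numbers. The read totals were not used here, so the depth behind a value is unknown and no counting interval is given. With 1 library per condition there was no replicate error and no p-value, and differences are described by their size only. In whole retina a change in the share of cells carrying a mark and a change of the mark within each cell cannot be told apart.

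Cytosolic ribosomal proteins form, with the ribosomal RNAs, the small subunit that decodes mRNA and the large subunit that joins amino acids. Nearly every cell transcribes their genes, and their mRNAs begin with a run of C and U bases, the terminal oligopyrimidine (TOP) tract, through which their translation follows nutrient signals. H3K4me2 lies around the start sites of active or poised genes, and H3K27me3 is laid down by Polycomb complexes at silenced developmental genes.

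The start sites of 6 members are shown because they carry long pyrimidine tracts that begin within 5 bases of the start, the hallmark of this family's mRNAs. They come from RefSeq (GRCm38.p6), run from 10 bases before the start to 20 bases from it onward, and have the tract in capitals.

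Rpl27a (chr7:109519185-109519214, plus strand): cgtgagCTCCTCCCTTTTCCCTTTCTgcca
Rpl15 (chr14:18270967-18270996, minus strand): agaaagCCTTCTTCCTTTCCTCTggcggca
Rpl13a (chr7:45128726-45128755, minus strand): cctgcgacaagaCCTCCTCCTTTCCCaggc
Rpl35a (chr16:33056472-33056501, plus strand): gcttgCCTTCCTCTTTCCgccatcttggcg
Rps10 (chr17:27635225-27635254, minus strand): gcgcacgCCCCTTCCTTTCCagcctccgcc
Rps18 (chr17:33955646-33955675, minus strand): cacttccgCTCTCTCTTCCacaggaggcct

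These tracts are 20 bases long in Rpl27a, 17 in Rpl15, 14 in Rpl13a, 13 in both Rpl35a and Rps10, and 11 in Rps18. RefSeq promoters were matched for 60 of the 81 members, with 72 listed starts. A C followed by 4 or more C or T, beginning within 5 bases of the start on the transcribed strand, was found at 30 of the 72 starts (41.7%). The share was 18.7% over 17160 listed starts of all matched symbols and 23.3% at mitochondrial ribosomal protein genes. A run of 8 such bases within 50 bases of the start was present at 79.2% of the members' starts, beside 28.95% of all starts and 32.9% of starts of mitochondrial ribosomal protein genes. The match depends on the start annotation. With the most upstream GENCODE start on mm9, used for 80 members, the tract share was 25% at the members, 18.2% at all symbols and 23.7% at mitochondrial ribosomal protein genes. The share with the longer run was 58.8%, 29.3% and 26.3%.

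The 300 bases around the members' starts (250 before, 50 after) held many CpG dinucleotides. The ratio of observed to expected CpG had a median of 0.865 at the members, 0.61 at all starts and 0.749 at starts of symbols with H3K4me2 in all 4 libraries. The letters CCGGAAG on either strand, a core of ETS factor motifs, were found at 36.1% of the members' starts, 11.7% of all starts and 32.9% of mitochondrial ribosomal protein starts. With the GENCODE starts the order of the families turned, with 32.5% at the members and 36.8% at mitochondrial ribosomal protein genes, beside 11.98% at all symbols. TATAAA or TATATA from 40 to 20 bases before the start was present at 4.17% of the members' starts and 3.22% of all starts, and with the GENCODE starts the shares were 2.5% and 3.10%, in the opposite order. The next promoters are shown because they span the range of H3K4me2 and H3K27me3 among the members. They run from 100 bases before the start to 20 bases from it onward, again from RefSeq (GRCm38.p6), with CpG in capitals.

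Rps9 (chr7:3703941-3704060, plus strand): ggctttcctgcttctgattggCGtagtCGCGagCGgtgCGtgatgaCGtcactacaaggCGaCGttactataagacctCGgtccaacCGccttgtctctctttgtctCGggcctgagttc
Rpl35 (chr2:39005112-39005231, minus strand): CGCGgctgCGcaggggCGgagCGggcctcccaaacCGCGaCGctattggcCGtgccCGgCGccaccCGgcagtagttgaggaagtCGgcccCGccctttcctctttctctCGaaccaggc
Rpl26 (chr11:68901466-68901585, plus strand): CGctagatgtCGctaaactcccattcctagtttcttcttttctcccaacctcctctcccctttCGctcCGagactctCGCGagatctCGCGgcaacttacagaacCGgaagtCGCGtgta
Rps4x (chrX:102189372-102189491, minus strand): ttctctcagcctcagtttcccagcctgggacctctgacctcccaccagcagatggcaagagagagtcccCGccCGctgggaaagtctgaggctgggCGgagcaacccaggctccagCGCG
Rpl3l (chr17:24727726-24727845, plus strand): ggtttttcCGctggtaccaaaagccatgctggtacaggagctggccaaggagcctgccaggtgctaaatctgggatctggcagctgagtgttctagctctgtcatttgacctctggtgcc
Rpl10l (chr12:66284382-66284501, minus strand): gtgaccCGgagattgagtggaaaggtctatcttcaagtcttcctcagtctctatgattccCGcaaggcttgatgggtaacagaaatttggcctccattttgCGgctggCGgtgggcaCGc
Rpl39l (chr16:10170128-10170247, plus strand): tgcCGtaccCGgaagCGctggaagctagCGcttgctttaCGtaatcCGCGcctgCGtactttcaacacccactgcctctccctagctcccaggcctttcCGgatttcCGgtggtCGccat

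Rps9 and Rpl35 were among the 5 members with the most H3K4me2. Rpl26 and Rps4x carried H3K27me3, and Rpl3l, Rpl10l and Rpl39l had the lowest H3K4me2 of the members. The printed stretch held 15 CpG in Rpl35, 11 in each of Rps9, Rpl26 and Rpl39l, 5 in each of Rps4x and Rpl10l, and 1 in Rpl3l. Observed over expected CpG in the 300 bases was 0.089 in Rpl3l and 0.836 in Rpl39l.

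H3K4me2 covered every core ribosomal protein gene at every stage, while most members had little H3K27me3. From E17 to PN15 the median H3K4me2 occupancy of the 81 members was 65, 45, 31 and 72. The corresponding medians of all symbols were 41, 27, 24 and 42. For H3K27me3 the members' medians were 9, 8, 6 and 7, below the medians of all symbols (11, 10, 9 and 10) at each stage. Olfactory receptor genes (Olfr, 1044 symbols), which are silent in the retina, served as a reference, and the 95th percentile of their values was the threshold in each library. For H3K4me2 it was 4, 8, 1 and 7 from E17 to PN15, and for H3K27me3 it was 21, 22, 22.9 and 29.

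**Figure D1:**
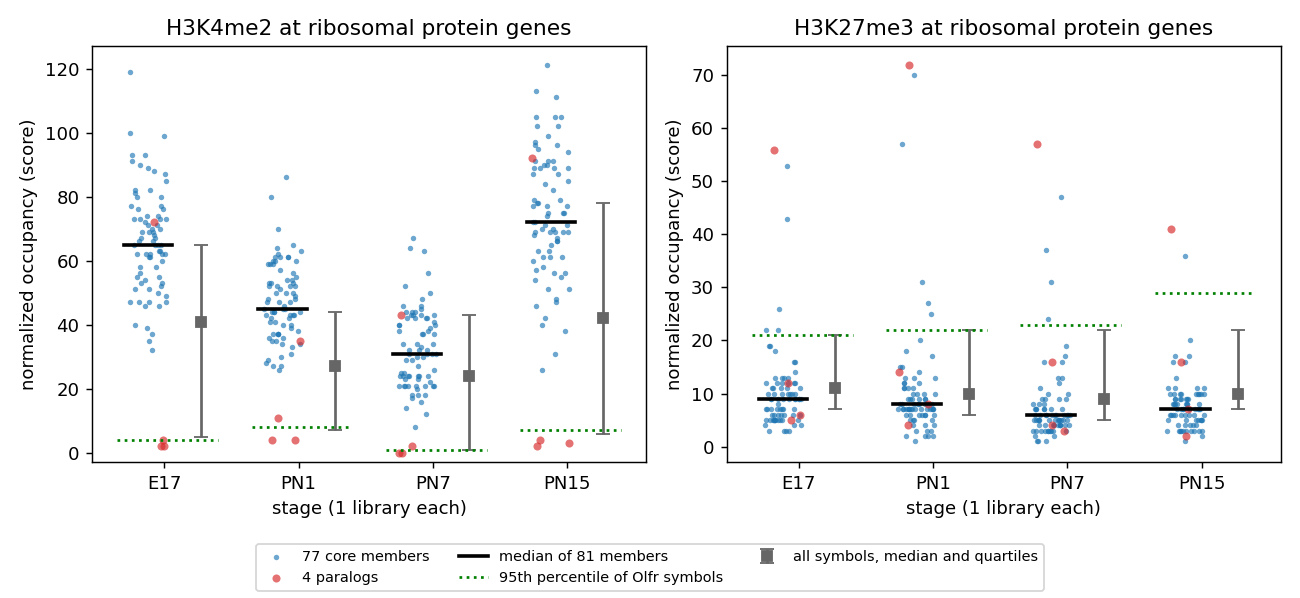
Normalized occupancy (score) of H3K4me2 (left) and H3K27me3 (right) at each member in the 4 libraries of each mark, with points for the 77 core members and the 4 paralogs, bars for the median of the 81 members, squares with lines for the median and quartiles of all symbols, and dotted lines for the 95th percentile of Olfr symbols. All core members lie above the dotted line in each H3K4me2 library, and the members' median lies below the median of all symbols in each H3K27me3 library.

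At E17, 78 of the 81 members (96.3%, Wilson 95% interval over genes 89.7 to 98.7) exceeded the H3K4me2 threshold, beside 77.2% of all symbols. The count was 79 at PN1 (97.5%, all symbols 72%), 79 at PN7 (97.5%, all symbols 72.1%) and 78 at PN15 (96.3%, all symbols 70.9%). The members not above it were paralogs in each library, namely Rpl10l and Rpl39l at each stage and Rpl3l at E17 and PN15. For H3K27me3, 6 members (7.41%) exceeded the threshold at E17 beside 24.3% of all symbols, 6 (7.41%) at PN1 beside 24.8%, 5 (6.17%) at PN7 beside 24.3%, and 2 (2.47%) at PN15 beside 19.3%. The PN15 threshold was itself higher than at the earlier stages.

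Occupancy was narrowly spread among the core members. The mean H3K4me2 over the 4 stages of the 77 core members had a median of 57.5, quartiles of 47.5 and 64.5 and a range of 27.8 to 88.8. Its coefficient of variation over genes was 0.226, beside 0.431 over the 13408 symbols above the threshold in all 4 H3K4me2 libraries, which are called marked symbols from here on. It was 0.294 for the 81 members with the paralogs, 0.294 for ribosome biogenesis genes and 0.171 for the 9 genes of elongation factors and other TOP mRNAs. In 71 of the 77 core members the mean exceeded the median of all symbols, 36.5. The order of the core members was partly kept between stages. Across them, as a description, Spearman's rho between H3K4me2 libraries was highest for E17 and PN15 (0.716) and lowest for PN1 and PN7 (0.382). Large and small subunit genes had almost the same medians of this mean, 57.8 and 57.3.

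**Figure D2:**
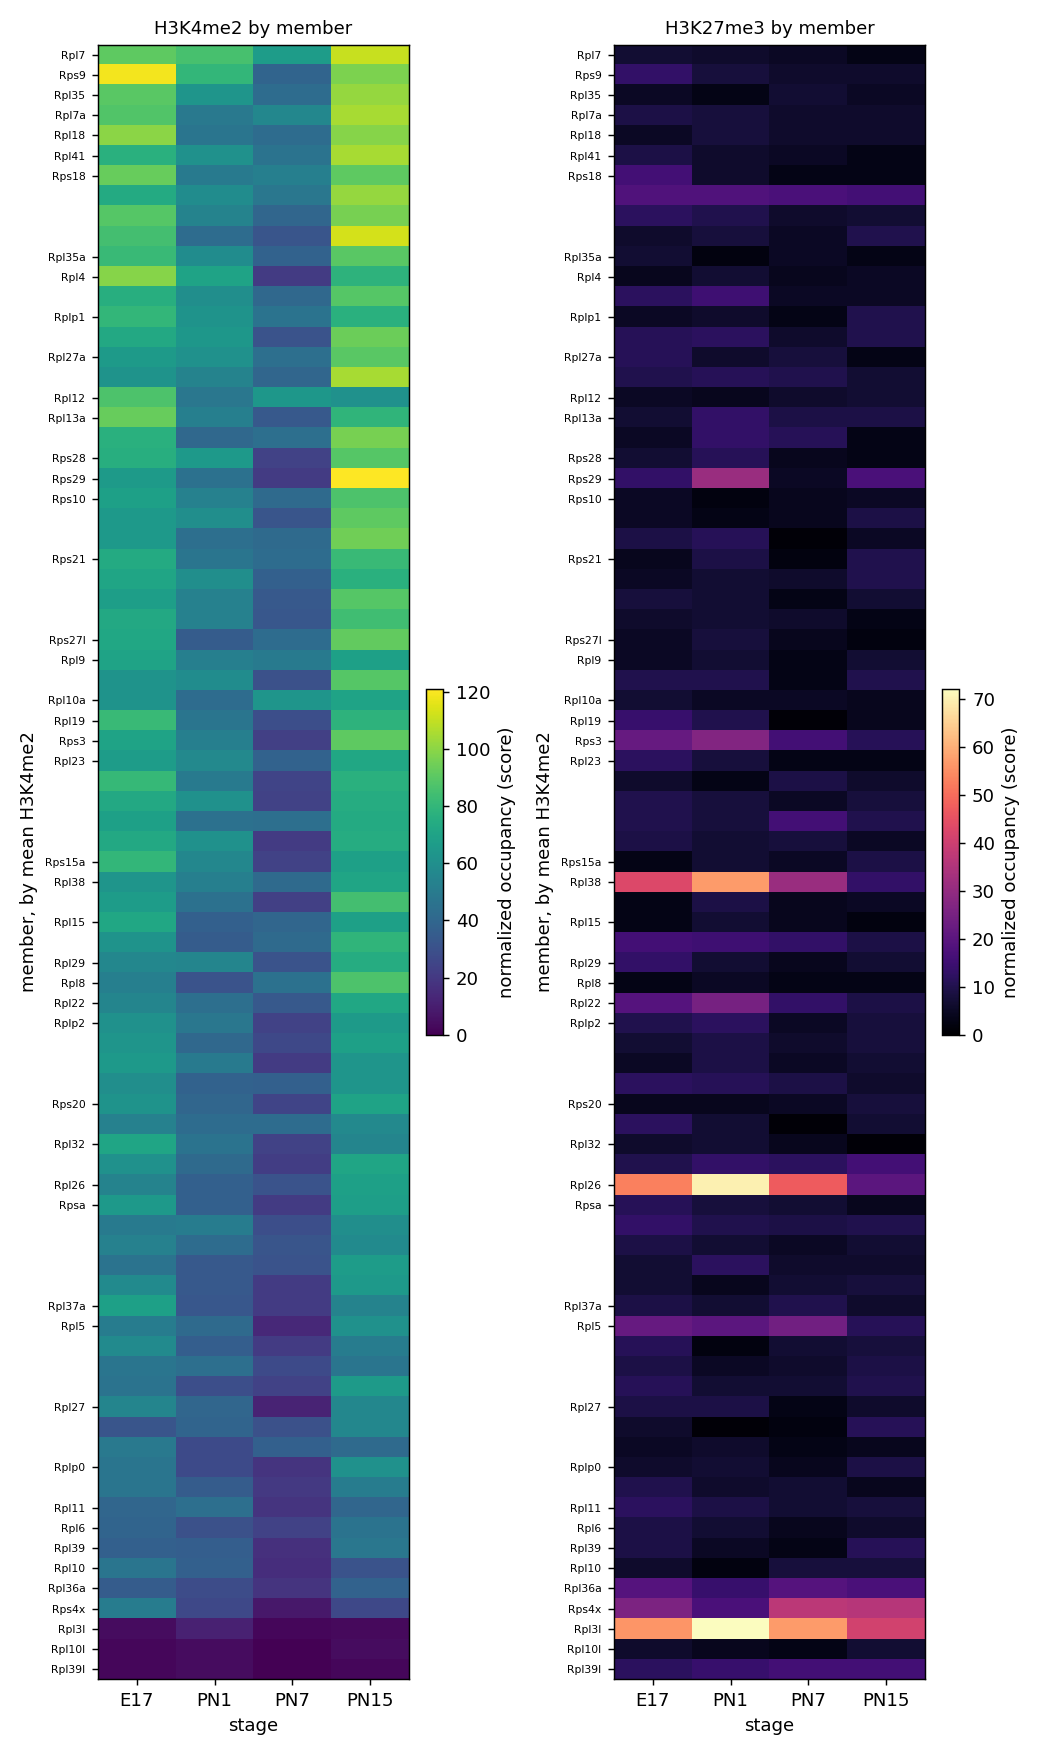
Normalized occupancy (score, colour) of H3K4me2 (left) and H3K27me3 (right) in the 4 libraries of each mark for the 81 members, ordered from the top by mean H3K4me2, with labels on those named in the text. The 3 paralogs with the lowest H3K4me2 and, above them, the 4 X-linked core members fill the bottom, and a few rows stand out in H3K27me3 against a low level elsewhere.

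Among the 5 members with the highest mean, Rpl7 had H3K4me2 occupancies of 91, 86, 67 and 111 in the order of the stages from E17 to PN15, which the following series of values keep. Rps9 had 119, 80, 39 and 97, so it was the highest member at E17 but not at PN15. Rpl35 (90, 63, 43 and 102), Rpl7a (88, 49, 56 and 105) and Rpl18 (100, 47, 43 and 99) followed, with Rpl41 (77, 61, 46 and 105) tied with Rpl18 in the mean at 72.3. Rpl7 and Rpl7a belong to the large subunit and Rps9 to the small one, where it lies near the mRNA entry channel. The window of Rpl7 also held the start of Rdh10, a retinol dehydrogenase gene, 1112 bases upstream on the other strand, with 113, 93, 73 and 147.

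Some ribosomal protein genes share their promoter region with another gene, so both windows count much of the same chromatin. By the GENCODE starts, 12 of 80 members (15%) had another protein-coding start within 2.5 kb. The share was 12.9% of all symbols, 17.7% of marked symbols and 40.8% of mitochondrial ribosomal protein genes. For 10 of the 12 (12.5% of the 80) the other start lay between 29 and 283 bases away. Within 300 bases the share was 7.29% of all symbols, 10.2% of marked symbols and 30.3% of mitochondrial ribosomal protein genes. In these 10 pairs the H3K4me2 of member and neighbour differed by at most 4 in any library, as the nearly identical windows require. Examples are Rps28 with Ndufa7 and Rpl9 with Lias. The mean H3K4me2 of the 12 had a median of 64.3, beside 54.4 for the other core members with an annotated start. Which start the modified nucleosomes belong to cannot be told apart with these windows.

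The acidic stalk of the large subunit, which recruits elongation factors, is built of Rplp0, Rplp1 and Rplp2. H3K4me2 was 47, 27, 18 and 61 at Rplp0, 80, 62, 46 and 77 at Rplp1, and 61, 48, 24 and 66 at Rplp2. Rplp1 was the highest of the 3 at every stage. Rpl5 and Rpl11, which bind the 5S rRNA and, outside the ribosome, the p53 regulator Mdm2, lay in the lower part of the family. Rpl5 had 51, 42, 14 and 61, and Rpl11 had 40, 44, 18 and 40. The 15 members whose human orthologs are mutated in Diamond-Blackfan anemia had a median of the mean H3K4me2 of 49.5, within the quartiles of the core members.

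The 4 core members on the X chromosome had the lowest mean H3K4me2 of all 77 core members. Rps4x, a small subunit protein, had occupancies of 51, 26, 8 and 26. Rpl36a had 35, 28, 18 and 38, Rpl10, which lies near the peptidyl transferase centre, had 47, 37, 16 and 31, and Rpl39, a small protein of the exit tunnel, had 37, 36, 17 and 48. Their means were 27.8, 29.8, 32.8 and 34.5, while the lowest of the 72 core members placed on an autosome, Rpl6, had 34.8. The groups were thus separated by a narrow gap in the mean, and they overlapped within each library. The ratio of the X-linked to the autosomal members' median of the mean was 0.538. By stage, in the same order, it was 0.632, 0.681, 0.516 and 0.46.

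A lower H3K4me2 was not particular to these 4 genes. Over all marked symbols the 420 on the X chromosome had a median of the mean of 27.8 and the 12725 on autosomes of 51.3, a ratio of 0.541. By stage this ratio was 0.534, 0.575, 0.5 and 0.537, without the lower PN15 value seen at the 4 members. H3K27me3 of the marked symbols was higher on the X chromosome, with medians of the mean of 15.8 and 10. Of the X-linked members Rps4x had 26, 17, 37 and 36 and Rpl36a 19, 14, 19 and 17 for H3K27me3, whereas Rpl10 (6, 2, 8 and 8) and Rpl39 (9, 5, 3 and 11) stayed near the members' median. The part of the animals' sex, of X inactivation and of read mapping was not tested.

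**Figure D3:**
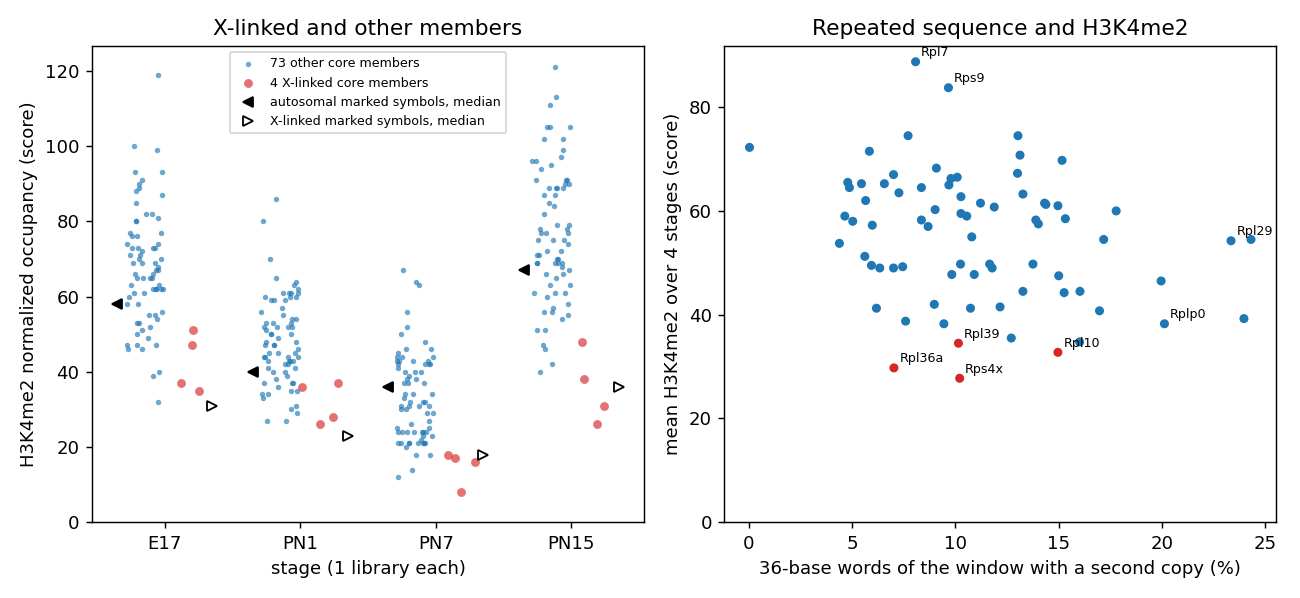
Left, H3K4me2 occupancy (score) of the X-linked and the other core members at each stage, with triangles for the medians of marked symbols on autosomes and on the X chromosome. Right, mean H3K4me2 over the 4 stages against the percentage of 36-base words of each window that occur elsewhere in mm9. The red X-linked points are the lowest in mean H3K4me2 (right) and overlap the other members within each stage (left), across second-copy shares from 7.03 to 14.96%.

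Ribosomal protein genes have many processed pseudogenes, and the authors removed reads with several positions. In the members' windows a median of 10.3% of the 36-base words had an exact second copy in mm9, beside 4.08% for mitochondrial ribosomal protein genes and 3.09% for genes with an Eif symbol, most of which encode translation initiation factors. The word length was chosen here and need not be the read length. The highest shares included 24.3% at Rpl15 and 23.3% at Rpl29. The 14 core members with at least 15% had a median mean H3K4me2 of 47, and the 12 below 6% had 60.5. Across 76 core members Spearman's rho was -0.27, as a description. H3K4me2 values of Rplp0, with 20.1% of its words repeated, and of other members with high shares are given as deposited, and the effect of the removed reads on them was not tested.

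The paralogs stood apart from the core members, with 1 exception. Rpl10l, an intronless copy known for expression in testis, had H3K4me2 of 2, 4, 0 and 4, and H3K27me3 of 6, 4, 3 and 7. Rpl39l, also known from testis, had H3K4me2 of 2, 4, 0 and 2, and H3K27me3 of 12, 14, 16 and 16. Both were below the thresholds of both marks at every stage. Rpl3l, the paralog of skeletal and heart muscle, had H3K4me2 of 4, 11, 2 and 3 but H3K27me3 of 56, 72, 57 and 41. It was the single member above the H3K27me3 threshold at all 4 stages. With the 99th percentile of Olfr symbols as threshold it was above it until PN7 only. Rps27l, a p53-responsive and widely expressed paralog, had H3K4me2 of 72, 35, 43 and 92 and H3K27me3 of 5, 8, 4 and 2, within the range of the core members.

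Other ribosomal protein genes whose symbols fall outside the naming rule were also above the H3K4me2 threshold and below the H3K27me3 threshold at every stage. H3K4me2 was 109, 45, 39 and 117 at Fau, which encodes a ribosomal protein fused to a ubiquitin-like protein. Gnb2l1, which encodes the small subunit scaffold RACK1, had 114, 77, 48 and 132, and its mean of 92.8 exceeded the highest core value of 88.8. The paralogs Rpl7l1 (58, 41, 14 and 52), Rpl22l1 (72, 30, 20 and 70) and Rpl36al (78, 57, 63 and 89) had means within the range of the core members. Rpl36al is an autosomal relative of the X-linked Rpl36a, and its H3K4me2 was more than that of Rpl36a at every stage.

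H3K27me3 exceeded the threshold in any library at 8 members (9.88%, all symbols 30.5%, marked symbols 33.7%), of which 7 were core members. With the 99th percentile of Olfr symbols 3 members remained, namely Rpl3l and Rpl26 until PN7 and Rpl38 until PN1. The share of all symbols above that percentile is not given. Rpl26, which also binds p53 mRNA, had H3K27me3 of 53, 70, 47 and 20, with H3K4me2 of 54, 37, 31 and 69. Rpl38, known for its part in the translation of Hox mRNAs, had 43, 57, 31 and 13, with H3K4me2 of 63, 52, 42 and 71. Both carried both marks until PN7 and were below the threshold at PN15. This course was not particular to them, since the 95th percentile of H3K27me3 over all symbols was 179, 206, 159.8 and 97. Rps4x went the other way, with 26 and 17 at E17 and PN1 and 37 and 36 at PN7 and PN15. The H3K27me3 medians of X-linked marked symbols were 17, 14, 17 and 18, beside 11, 11, 9 and 10 on autosomes. A lower value at PN1 than at PN7 was thus not particular to Rps4x. The remaining members crossed the threshold by a few units, except Rps29 at PN1. Rpl5 had 22, 20, 24 and 11, Rps3 22, 27, 16 and 11, Rpl22 19, 25, 13 and 9, and Rps29 13, 31, 5 and 17.

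**Figure D4:**
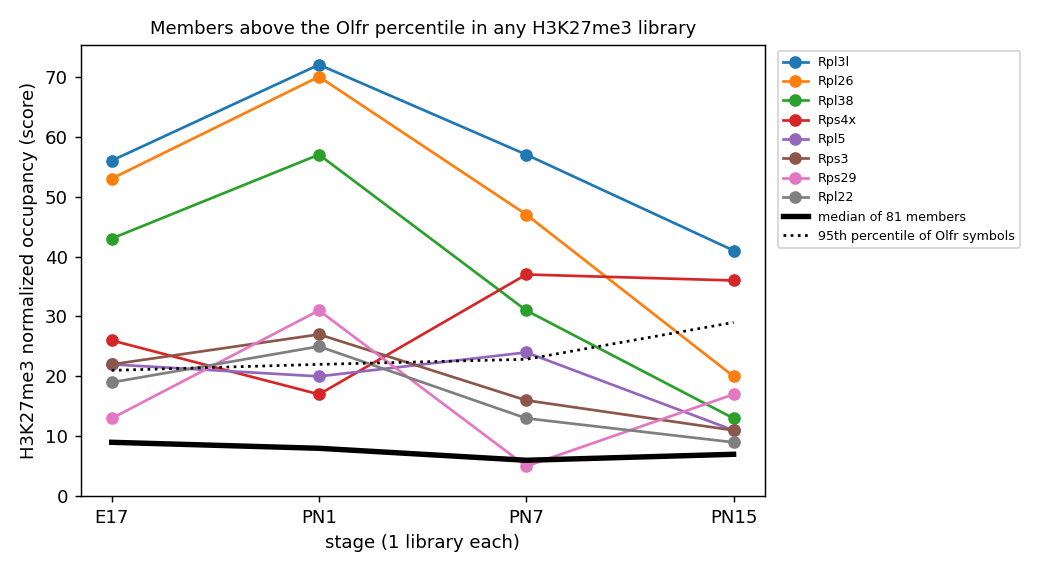
H3K27me3 normalized occupancy (score) by stage of the 8 members above the 95th percentile of Olfr symbols (dotted line) in any library, with the median of the 81 members (thick line). Rpl3l, Rpl26 and Rpl38 peak at PN1 at 72, 70 and 57, and Rps4x is highest at PN7 and PN15.

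Among the members above the threshold, Rpl22 lies near genes with more H3K27me3, outside the 2.5 kb window. The start of Rnf207, 7245 bases upstream of Rpl22 on the other strand, had H3K27me3 of 200, 251, 105 and 44, which like Rpl22 was highest at PN1. Ttyh2, 6907 bases downstream of Rpl38, had 36, 40, 19 and 17, less than Rpl38 itself until PN7. For Rpl26 the nearest other coding start within 15 kb was that of Rnf222, 13030 bases upstream, with 23, 22, 46 and 27, less than Rpl26 itself until PN7. Whether signal from neighbouring chromatin reached the members' windows was not tested.

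As deposited, the members' median H3K4me2 was lower at PN1 than at E17, lowest at PN7, and at PN15 above its E17 level. With libraries rescaled to the same median the step from E17 to PN1 turned (53.1 to 55.8), and PN7 was still the lowest. PN7 gave the lowest H3K4me2 value in 71 of the 81 members, which is 87.7%, beside 66.3% of all symbols and 53.1% of marked symbols, with ties counted. It was also lowest in 78.9% of mitochondrial ribosomal protein genes, 75.4% of Eif genes and 68.2% of ribosome biogenesis genes. PN15 gave the highest in 59 (72.8%), beside 52.2% of all and 62.7% of marked symbols, but also 81.6% of the mitochondrial ribosomal protein genes, again with ties. Without ties the counts were 70 (86.4%, all symbols 59.8%, marked symbols 50.7%) and 57 (70.4%, all symbols 47.9%, marked symbols 60.8%). From E17 to PN15 the value was higher in 58 members (71.6%), lower in 20 and equal in 3, and it was higher in 56.4% of all symbols and 65.01% of marked symbols. Changes are given as log2((later + 1)/(earlier + 1)). Their medians over the members were -0.45 from E17 to PN1, -0.62 from PN1 to PN7, 1.19 from PN7 to PN15 and 0.16 from E17 to PN15. All symbols had -0.42, -0.50, 1 and 0.13, a median that includes unmarked genes. The Olfr symbols had 0.59, -2, 1.59 and 0. Marked symbols had -0.53, -0.10, 0.81 and 0.20. The step to PN7 and the step from it were thus larger at the members than at marked symbols. The PN7 library also differed from the others in its background, since 19.5% of its rows were 0, beside 0.362 to 2.52% in the other H3K4me2 libraries. The part of that library in the dip was not tested, and no second PN7 library was available here.

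**Figure D5:**
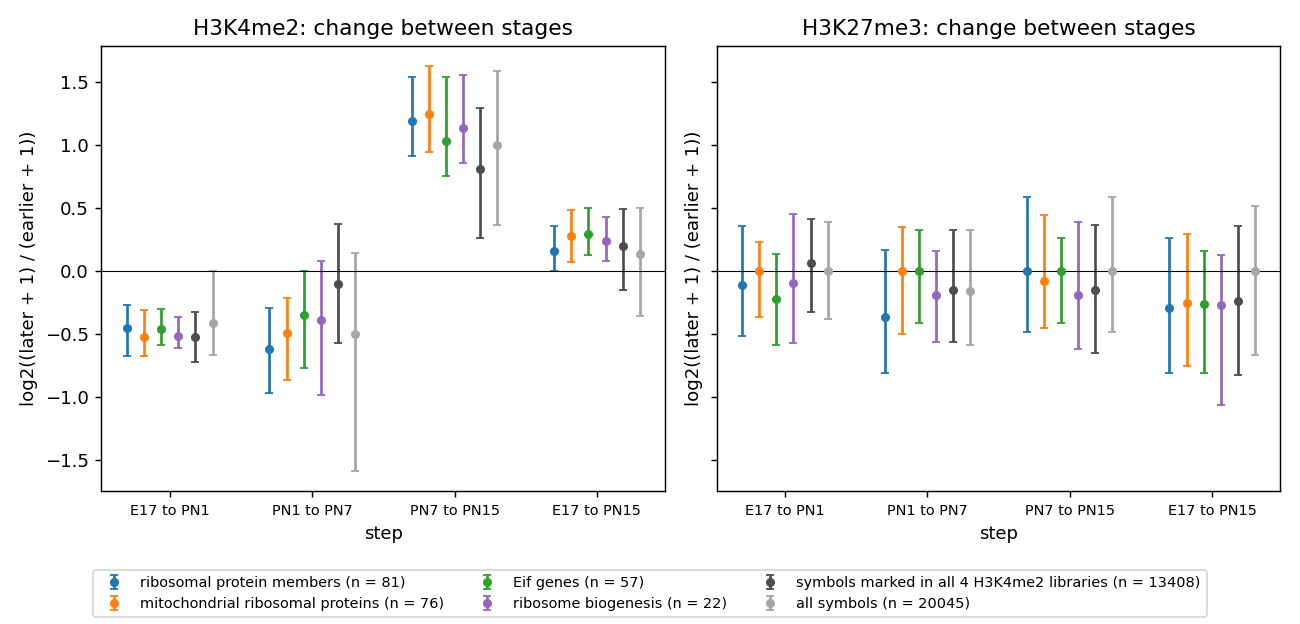
Change of H3K4me2 (left) and H3K27me3 (right) between stages, as log2((later + 1)/(earlier + 1)), with points for the median and lines for the quartiles over genes of each group. H3K4me2 falls to PN7 and rises to PN15 at the members (medians -0.62 and 1.19), with less change at marked symbols (-0.10 and 0.81).

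The median change of all symbols was subtracted, and 2-fold changes were then counted. This median was not a shift that all genes shared. From PN1 to PN7 it was -0.50, beside -0.10 at marked symbols and -2 at Olfr symbols. Counts for that step therefore depend on the background chosen. From E17 to PN1, 3 members were higher (all symbols 13.7%) and 0 lower (all symbols 1.12%). The 3 were Rpl3l, Rpl10l and Rpl39l, each with values of at most 11. With a pseudocount of 5, or with values of at least 10 in 1 or both libraries, 1 member was higher. From PN1 to PN7, 2 members, Rpl10a and Rpl8, were higher (all symbols 13.7%) and 7 lower (all symbols 26.6%). The 7 were the same 3 paralogs with Rpl4 (70 to 21), Rpl27 (40 to 12), Rpl5 (42 to 14) and Rps4x (26 to 8). From PN7 to PN15, 4 were higher (all symbols 15.9%), namely Rps29 (21 to 121), Rpl27 (12 to 56), Rpl5 (14 to 61) and Rpl10l (0 to 4). Rpl12 (64 to 61) alone was lower (all symbols 17.1%). From E17 to PN15 no member was higher (all symbols 5.17%), and Rps4x (51 to 26) alone was lower (all symbols 12.8%). All 77 core members were marked symbols, whereas Rpl3l, Rpl10l and Rpl39l were not. From E17 to PN1, 0 core members were higher, beside 0.522% of marked symbols. From PN1 to PN7, 4 core members (5.19%) were lower, beside 3.45% of marked symbols, and 2.60% were higher, beside 19.9%. From PN7 to PN15, 3.90% of core members and 4.97% of marked symbols were higher, and 1.30% and 17.54% were lower. From E17 to PN15, 0 core members and 2.70% of marked symbols were higher, and 1.30% and 6.91% were lower. Several calls depended on the setting, and shares of all symbols under the other settings are not given. With a pseudocount of 5, with values of at least 10 in 1 or both libraries, or against symbols marked at E17, 0 members were higher from PN1 to PN7, so Rpl10a and Rpl8 were not called, and 2, 13 and 12 were lower. Under the same settings 0 members were lower from PN7 to PN15, so Rpl12 was not called, and with a pseudocount of 5 Rps4x was not called from E17 to PN15.

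The size of the counts depended on the scaling, and from E17 to PN1 so did their balance. As deposited, 1 member was 2-fold higher from E17 to PN1 (all symbols 8.23%) and 3 lower (all symbols 6.78%). From PN1 to PN7, 0 were higher (all symbols 4.09%) and 19 lower (23.5% of members, all symbols 36.8%). From PN7 to PN15, 58 were higher (71.6% of members, all symbols 52.3%) and 0 lower (all symbols 2.06%). From E17 to PN15, 0 were higher (all symbols 7.84%) and 0 lower (all symbols 11.7%). Of the 13408 marked symbols, 777 were higher and 1485 lower from PN1 to PN7. Of the 77 core members, 0 were higher and 16 lower at that step. From PN7 to PN15, 5476 marked symbols were higher and 219 lower, beside 55 and 0 core members.

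Between E17 and PN15 the 5 largest rises of H3K4me2 included those of Rps29 (66 to 121), Rpl10l (2 to 4) and Rpl8 (52 to 87). In Rps29 the rise came after PN7, since its values at PN1 and PN7 were 45 and 21. The largest falls were those of Rps4x (51 to 26), Rpl10 (47 to 31), Rpl12 (87 to 61), Rpl32 (71 to 55) and Rpl37a (69 to 54). The window of Rpl12 also held the start of Lrsam1 55 bases away, with 83, 44, 62 and 59. Of the 4 X-linked members, 2 were thus among the 5 largest falls, while Rpl39 (37 to 48) and Rpl36a (35 to 38) were higher at PN15.

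H3K27me3 of the members had a median log2 change of -0.29 from E17 to PN15, beside 0 for all symbols and -0.24 for marked symbols. After subtraction of the median of all symbols, 2 members were 2-fold higher (all symbols 12.2%) and 17 lower (21.0% of members, all symbols 16.1%, marked symbols 20.8%). The members' share of falls was thus near that of marked symbols, and the 17 became 11 with libraries rescaled to the same median, 9 with values of at least 10 in 1 or both libraries and 6 with a pseudocount of 5. Shares of all symbols under these settings are not given. Most of the members' 2-fold changes were between values below the threshold. The falls included Rps18 (16 to 3), Rpl32 (6 to 1), Rpl23 (12 to 3), Rpl38 (43 to 13) and Rpl19 (14 to 4), and only Rpl38 and Rpl26 (53 to 20) among the 17 began above the threshold. The 5 largest rises included those of Rps15a (3 to 9), Rps21 (4 to 10), Rplp1 (5 to 10) and Rps20 (4 to 8), of which Rps15a and Rps21 were the 2 counted.

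Other genes of the translation machinery followed nearly the same course. The 76 mitochondrial ribosomal protein genes had median H3K4me2 of 62, 44, 29 and 72.5, and the 57 Eif genes 66, 45, 37 and 80. The Eif genes were taken by symbol and include the Eif2ak kinases, the Eif4ebp repressors and Eif4enif1, which act on initiation factors, and the Eif2c genes, which encode Argonaute proteins. The 22 ribosome biogenesis genes had 73.5, 53, 34 and 74.5, and the 9 genes of elongation factors and other TOP mRNAs 76, 55, 43 and 97. All 76 mitochondrial ribosomal protein genes were above the H3K4me2 threshold at each stage. From PN1 to PN7 their median log2 change of H3K4me2 was -0.49, that of Eif genes -0.35 and that of ribosome biogenesis genes -0.39, between the members' -0.62 and the marked symbols' -0.10. From PN7 to PN15 it was 1.24, 1.03 and 1.13 in the same order and 1.32 at the elongation factors and other TOP mRNAs, so the members' 1.19 lay among these groups. For H3K27me3, 5, 4, 2 and 1 of the 76 mitochondrial ribosomal protein genes exceeded the threshold from E17 to PN15.

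The tissue label was set beside 6 retina genes (Rax, Otx2, Crx, Pax6, Six3 and Nrl). All 6 exceeded the H3K4me2 threshold at every stage, as did 66.9% of all symbols, so this count does not identify the tissue. Among them H3K4me2 was 20, 24, 21 and 158 at Crx, the photoreceptor transcription factor. Pax6, a factor of progenitors and inner retina neurons, had 137, 97, 114 and 44. The most changed core member over the same span, Rps4x, differed by less than 2-fold as deposited (51 to 26, log2 change -0.95).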

How the data were processed

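The values are scores, and the authors made the deposited table as follows. Reads were mapped to mm9 with Bowtie 0.12.4, multiply mapping reads were dropped, and the midpoints of the others within 2.5 kb of each RefSeq TSS were summed, normalized to the mapped reads of the library and rounded. Sums over rows were 698257 to 1200594 in the H3K4me2 libraries and 590366 to 980808 in the H3K27me3 libraries. The rd1/rd1 H3K4me2 and anti-GFP libraries (2 of 10 samples) were not used here.

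Members and lists were chosen with earlier results of these data known. Changes used a pseudocount of 1, a 2-fold limit and the median of all symbols as zero. Named genes were the 5 highest and 5 lowest in mean H3K4me2, the 5 highest in mean H3K27me3, the 5 largest rises and falls of each mark from E17 to PN15, and all of the stalk, 5S RNP, X-linked, paralog and outside-the-rule lists. Others were named after their values were seen. Some items that this rule selects are not reported here. Starts on mm9 came from GENCODE for 80 members (Rpl41 had none), and the promoter features from RefSeq. The counting of changes was tested on simulated data. Python 3.11.15, numpy 2.4.6, pandas 2.3.3, scipy 1.17.1, numba 0.67.0 and matplotlib 3.10.9 were used.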

Additional observations from a re-analysis of the deposited data

How the results depend on the processing

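Of 190 alternative values, 137 lay within 1.5 times of the count or within the 95% order-statistic interval of the median. Taking the mean over rows, counting every row and, chosen after seeing the data, leaving out the X-linked core members gave no others. Without the paralogs, 1 member exceeded the H3K27me3 threshold at PN15, and in H3K4me2 0 were higher from E17 to PN1 and 4 lower from PN1 to PN7. Libraries rescaled to the same median gave H3K4me2 medians of 53.1, 55.8, 43.3 and 57.4 from E17 to PN15, an H3K27me3 median of 6.67 at PN7 and 11 H3K27me3 falls from E17 to PN15, so PN7 stayed the lowest H3K4me2 stage while the step from E17 to PN1 turned from a fall to a rise. With the 99th percentile of Olfr symbols, 3, 3, 2 and 0 members exceeded the H3K27me3 threshold. With the median of all symbols as threshold, 51 exceeded it in H3K4me2 at PN7 and 23, 23, 16 and 13 in H3K27me3. With a pseudocount of 5, H3K4me2 gave 1 rise to PN1, 0 rises and 2 falls to PN7, 0 falls to PN15 from PN7 or from E17 and a median change to PN15 of 0.43 relative to all symbols, and H3K27me3 gave 0 rises and 6 falls from E17 to PN15. At 1.5-fold the H3K4me2 counts were 3 falls to PN1, 9 rises and 15 falls to PN7, 14 rises and 5 falls from PN7 to PN15, and 5 rises and 3 falls from E17 to PN15, and H3K27me3 had 10 rises and 29 falls. With values of at least 10 in 1 or both libraries, the H3K4me2 median relative to all symbols turned from -0.035 to 0.066 for E17 to PN1 and was -0.49 to PN7 and 0.36 from PN7, with 1 rise to PN1, 0 rises and 13 falls to PN7, and 7 rises and 0 falls from PN7. The H3K27me3 median was then -0.038 from PN7 to PN15, with 1 rise and 9 falls from E17 to PN15. Against symbols marked at E17, the H3K4me2 medians were -0.41 to PN7 and 0.35 from PN7, with 0 rises and 12 falls to PN7 and 0 falls from PN7, and H3K27me3 had 5 rises and 9 falls. The filter and this background remove low symbols from the comparison, and the cause of the other differences was not tested. Shares of all symbols under the alternative settings are not given, so these counts do not compare the members with other genes. No paired analysis was possible because each mark and stage has 1 library and the labels give no replicate numbers, and no library could be left out for the same reason.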
